A study of Mus musculus with 7 samples.

Results

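Differentiation stage genes of committed precursors are the 10 genes Gpr17, Bmp4, Neu4, Bcas1, Enpp6, Tcf7l2, Fyn, Itpr2, Ctps and Mpzl1, taken by symbol from the 27998 genes of the deposited count table. All 10 were found. They were followed from OPCs through the cluster annotated COP/NFOL/MFOLa and the cluster MFOLb to the mature clusters MOL1, MOL2 and MOL5/6, in each of 3 libraries. Cells were sorted from the cortex of adult mice at P90 (11 to 14 weeks; C57BL/6 and B6CBA background) and profiled by droplet-based single-cell RNA-seq. The labels name motor and cingulate cortex, whereas the study's methods mention dissection of neocortex and then of corpus callosum, so the exact tissue is uncertain. All mice carried Emx1-Cre and the reporter Sox10-GFP-TdTom, in which Cre switches Sox10-driven GFP to tdTomato, so that cells of Emx1-expressing dorsal progenitors were tdTomato-positive and cells of ventral origin were GFP-positive. Control dOLCs were the tdTomato-positive cells and control vOLCs the GFP-positive cells of control mice. Ectopic vOLCs were GFP-positive cells of mice that also carried Sox10-GFP-DTA, in which Cre turns on diphtheria toxin in the dorsal lineage and ablates part of it. Dorsal and ventral are therefore defined by where Emx1-Cre was active. The study pooled 4 control and 2 ablated mice, so a condition is a single library and the conditions could not be tested against each other. Values in groups of 3 are always in the order control dOLCs, control vOLCs, ectopic vOLCs.

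The authors' filter left 9291 cells, namely 5804, 925 and 2562 per library, at a median of 3489.5, 5022 and 5318.5 UMIs per cell. The cluster COP/NFOL/MFOLa held 111 of these cells, against 1304 OPCs and 157 MFOLb cells. Among kept cells of different libraries, 39 barcode sequences were shared. Levels are UMIs summed over the cells of a cluster and library, per 1000000 UMIs of the same cells (CPM). Differences are log2 ratios of CPM. Intervals are exact at 95% and count UMIs or cells, so they hold no spread between mice. Those of levels and ratios also hold none between cells.

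OPCs divide and carry the receptor Pdgfra. On leaving the cycle they become committed precursors (COPs), then newly formed oligodendrocytes (NFOLs), then myelin-forming (MFOL) and mature (MOL) oligodendrocytes. The genes described here are known as landmarks of the passage between OPC and myelinating cell, a state that is short and rare in the adult brain. Gpr17 is an orphan receptor that holds precursors back from maturing, Bmp4 is a secreted ligand, Enpp6 is a choline-releasing enzyme used to find newly forming oligodendrocytes, and Tcf7l2 is a transcription factor of the Wnt pathway needed for the step to myelination. Neu4 is a sialidase, Bcas1 marks early myelinating cells, Fyn is a Src family kinase, Itpr2 is an endoplasmic reticulum calcium channel, Ctps makes CTP and Mpzl1 is an adhesion protein related to myelin protein zero.

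RefSeq promoter windows on GRCm38.p6 were found for 8 of the 10 genes, and none was matched for Gpr17 and Bcas1. The 250 bases before the start are shown for 3 genes, chosen because each was at least 2-fold higher in COP/NFOL/MFOLa than in OPCs and because they are a ligand, an enzyme and an adhesion protein. Bmp4 lies at chr14:46390670-46390919 on the minus strand, Enpp6 at chr8:46986637-46986886 on the plus strand and Mpzl1 at chr1:165634542-165634791 on the minus strand. Capitals mark the motifs searched on both strands, which were the E-box CANNTG, the SOX core ACAAT and the TCF/LEF core CTTTGA.
Bmp4: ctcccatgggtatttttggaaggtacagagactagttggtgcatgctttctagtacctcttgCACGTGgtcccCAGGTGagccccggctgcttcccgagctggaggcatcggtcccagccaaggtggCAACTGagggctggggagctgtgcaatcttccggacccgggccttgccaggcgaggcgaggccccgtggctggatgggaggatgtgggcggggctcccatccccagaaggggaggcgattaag
Enpp6: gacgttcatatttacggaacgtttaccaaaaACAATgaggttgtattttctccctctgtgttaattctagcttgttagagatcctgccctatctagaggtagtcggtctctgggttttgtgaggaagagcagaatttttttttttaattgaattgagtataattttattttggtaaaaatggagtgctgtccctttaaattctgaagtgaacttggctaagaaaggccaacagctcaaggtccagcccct
Mpzl1: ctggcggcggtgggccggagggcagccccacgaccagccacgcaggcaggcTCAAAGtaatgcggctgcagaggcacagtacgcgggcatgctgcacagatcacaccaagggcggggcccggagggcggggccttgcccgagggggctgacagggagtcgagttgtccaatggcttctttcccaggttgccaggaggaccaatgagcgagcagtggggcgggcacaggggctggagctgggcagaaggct
The Bmp4 window held 3 E-boxes and neither of the other motifs. The Enpp6 window held 1 SOX core, and the Mpzl1 window held 1 TCF/LEF core. None of these motifs overlapped another. Of 32851 RefSeq windows of the same length, 66.2% held the E-box, 27.7% the SOX core and 13.8% the TCF/LEF core, and a match is a description only.

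Most of the 10 genes were highest in COP/NFOL/MFOLa. This held for 8 of 10 in each of the 3 libraries, and the exceptions were Neu4, highest in OPCs, and Itpr2, highest in OPCs or, in control dOLCs, in cycling OPCs. The authors named the clusters from the same cells and may have used these genes, so the stage pattern is a description and no test of it is given. Among the 10 genes, 3 patterns could be told apart.

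Enpp6, Fyn, Mpzl1, Tcf7l2, Bmp4, Ctps and Bcas1 were higher in COP/NFOL/MFOLa than in OPCs and lower again afterwards. Enpp6 went from 12.2, 12.7 and 1.66 CPM in OPCs to 816, 815 and 1125 CPM in COP/NFOL/MFOLa. The OPC values rest on 32, 5 and 2 UMIs. Mpzl1 went from 308, 337 and 351 CPM to 1302, 1561 and 2082 CPM. Fyn went from 162, 157 and 146 CPM to 887, 1308 and 904 CPM, a log2 ratio of 2.45 (2.26 to 2.65) within control dOLCs. In none of the 7 genes of this pattern did the OPC and COP/NFOL/MFOLa levels overlap between libraries. The share of all genes without overlap was not computed, so nothing is read from this. Bmp4 was at 25.9, 30.4 and 19.1 CPM in OPCs and at 231, 677 and 221 CPM in COP/NFOL/MFOLa. Tcf7l2 went from 46.5, 86.1 and 50.7 CPM to 197, 207 and 194 CPM, close between libraries at that stage but on 98, 18 and 29 UMIs. Ctps was at 22.5, 22.8 and 22.5 CPM in OPCs and at 114, 80.3 and 120 CPM in COP/NFOL/MFOLa. The latter rest on 57, 7 and 18 UMIs, and 1 ectopic vOLC cell held 10 of the 18. Levels are compared within a gene only, since UMIs of the transcript end are not scaled by length. Bcas1 went from 153, 139 and 131 CPM to 487, 723 and 462 CPM.

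Gpr17 was already expressed in OPCs. It was at 414, 527 and 353 CPM in OPCs and at 704, 1251 and 422 CPM in COP/NFOL/MFOLa. Within control dOLCs the log2 ratio between these stages was 0.76 (0.59 to 0.94). Within control vOLCs it was 1.25 (0.90 to 1.59), past 2-fold, but 1 of the 13 COP/NFOL/MFOLa cells held 45 of the 109 UMIs. Within ectopic vOLCs it was 0.26 (-0.15 to 0.64), an interval that includes no difference. At 1000 UMIs per cell a Gpr17 UMI was found in 32.5%, 42.1% and 28.2% of OPCs, against 0.98%, 1.43% and 0.27% of MOL5/6 cells, which should lack it. Without thinning these shares of OPCs were 64.1%, 69.4% and 63.0%, since more UMIs per cell find the gene more often.

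Neu4 and Itpr2 were at a high level in both stages. Neu4 was at 610, 735 and 576 CPM in OPCs and at 341, 562 and 455 CPM in COP/NFOL/MFOLa. Itpr2 was at 252, 299 and 200 CPM in OPCs and at 223, 149 and 167 CPM in COP/NFOL/MFOLa. A draw of 1000 UMIs from each cell placed both genes highest in COP/NFOL/MFOLa, so that all 10 genes then peaked there, while the mean over cells of full-depth CPM, which also weights cells equally, kept both highest in OPCs. At full depth the log2 ratio of COP/NFOL/MFOLa to OPCs was below 0 in all 3 libraries for both genes, at -0.84 (-1.08 to -0.61), -0.39 (-0.85 to 0.05) and -0.34 (-0.72 to 0.02) for Neu4. In the draw itself a Neu4 UMI was found in 582 of 1304 OPCs and in 38 of 111 COP/NFOL/MFOLa cells.

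At least a 2-fold higher level in COP/NFOL/MFOLa than in OPCs in all 3 libraries was found for 7 of the 10 genes, against 4.41% of the 8074 genes past a minimum of 50 UMIs and of 10% of cells. Against all MOL cells it was found for all 10, beside 6.64% of 7746 genes, and against MFOLb for all 10, beside 4.94% of 4295 genes. The genes were chosen as stage genes, and several passed the minimum only through COP/NFOL/MFOLa, so nothing is read from these counts.

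**Figure D1:**
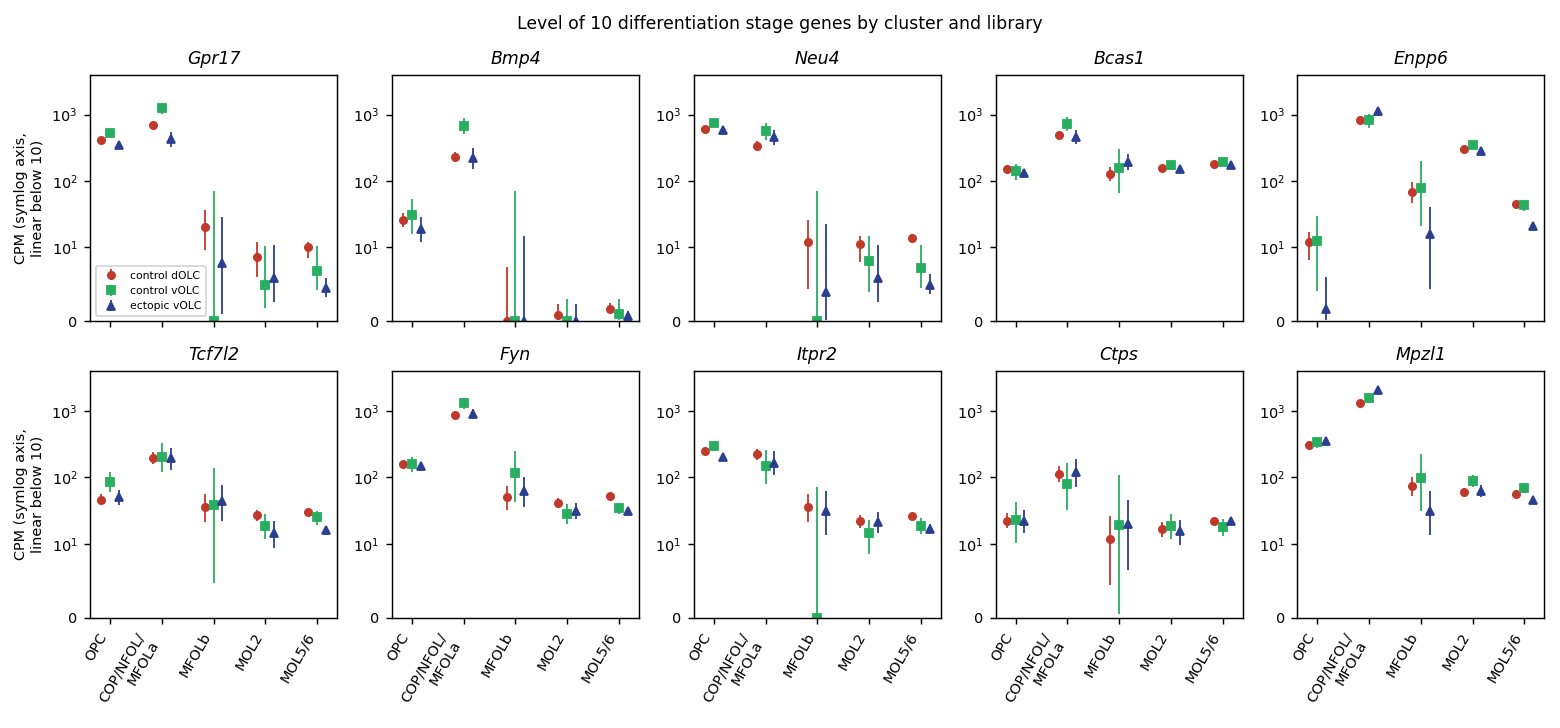
CPM of each gene (vertical axis, linear below 10 and logarithmic above) by cluster, with 1 point per library and 95% Poisson intervals. For 8 genes each library's COP/NFOL/MFOLa point lies above its points in the other clusters, Neu4 and Itpr2 are highest in OPCs, and Enpp6 lies between 280 and 354 CPM in MOL2.

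After this stage the genes differed in how much RNA remained. Enpp6 had a second, lower level in MOL2, at 299, 354 and 280 CPM, against 45.4, 42.8 and 20.7 CPM in MOL5/6. The ratio of MOL2 to MOL5/6 for Enpp6 was 2.72 (2.58 to 2.86), 3.05 (2.76 to 3.35) and 3.75 (3.52 to 4.00) on the log2 scale. Bcas1 kept an even level in mature cells, at 156, 173 and 152 CPM in MOL2 and at 180, 190 and 175 CPM in MOL5/6, close to its OPC level. Bmp4 was at or below 1.68 CPM in MOL2 and MOL5/6, where Gpr17 and Neu4 stayed at or below 14.0 CPM. Low levels of Gpr17 and Neu4 in MOL5/6 were highest in control dOLCs, at 10.1 and 14.0 CPM, and lowest in ectopic vOLCs, at 4.45 and 4.92 CPM. The 7 OPC marker genes moved the same way, with a summed level of 109, 69.9 and 56.0 CPM in MOL5/6, and their part in these levels was not tested.

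MFOLb was below COP/NFOL/MFOLa in these genes, and nearer to MOL5/6. Bmp4 had no UMI among 157 MFOLb cells, which by a rule of 3 counts, not the Poisson interval, allows a level of up to 3.74 CPM. Mpzl1 was at 74.1, 96.7 and 31.8 CPM in MFOLb and at 56.7, 68.5 and 45.6 CPM in MOL5/6. Bcas1 was at 128, 155 and 195 CPM against 180, 190 and 175 CPM. Fyn was 2-fold or more above MOL5/6 in both ventral libraries, at log2 ratios of 1.76 (0.28 to 2.93) and 1.00 (0.18 to 1.72), and Tcf7l2 in ectopic vOLCs, at 1.44 (0.41 to 2.31), on 6, 16 and 11 UMIs in MFOLb. In control dOLCs these ratios were -0.08 (-0.71 to 0.50) for Fyn and 0.24 (-0.53 to 0.91) for Tcf7l2. The control vOLC values of MFOLb rest on 8 cells. The 4 astrocyte marker genes Aqp4, Gja1, Slc1a3 and Aldoc, the first of which encodes a water channel, summed to 2204, 2786 and 1777 CPM in MFOLb, against 191, 165 and 149 CPM in all MOL cells. All 4 were detected in MFOLb in every library. MFOLb is called by its annotated name only. The part of the astrocyte genes was not tested.

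The name COP/NFOL/MFOLa was checked against other genes. All 9 myelin genes of the list were at least 2-fold above OPCs in all 3 libraries, and their summed share was 8.20%, 7.48% and 8.89% of UMIs, above the 6.55%, 7.26% and 7.34% of all MOL cells. OPC markers summed to 600, 815 and 415 CPM there, against 7451, 9059 and 7295 CPM in OPCs, and Pdgfra had no UMI in the ectopic vOLC cells of the cluster. The cluster as a whole thus held both kinds of RNA.

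Ordering those 111 cells by their share of myelin list UMIs among myelin and OPC list UMIs separated the genes. The cells were cut into 3 ranges of 37 cells. Of these cells, 40 had no OPC list UMI and tied at the top of the score, and ties were ordered by the share of myelin list UMIs. The range a cell falls in is not a cell type. Myelin list UMIs were 3.08%, 8.69% and 10.9% of UMIs in the ranges, which the order itself sets, and none of the 10 genes was used in it.

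**Figure D2:**
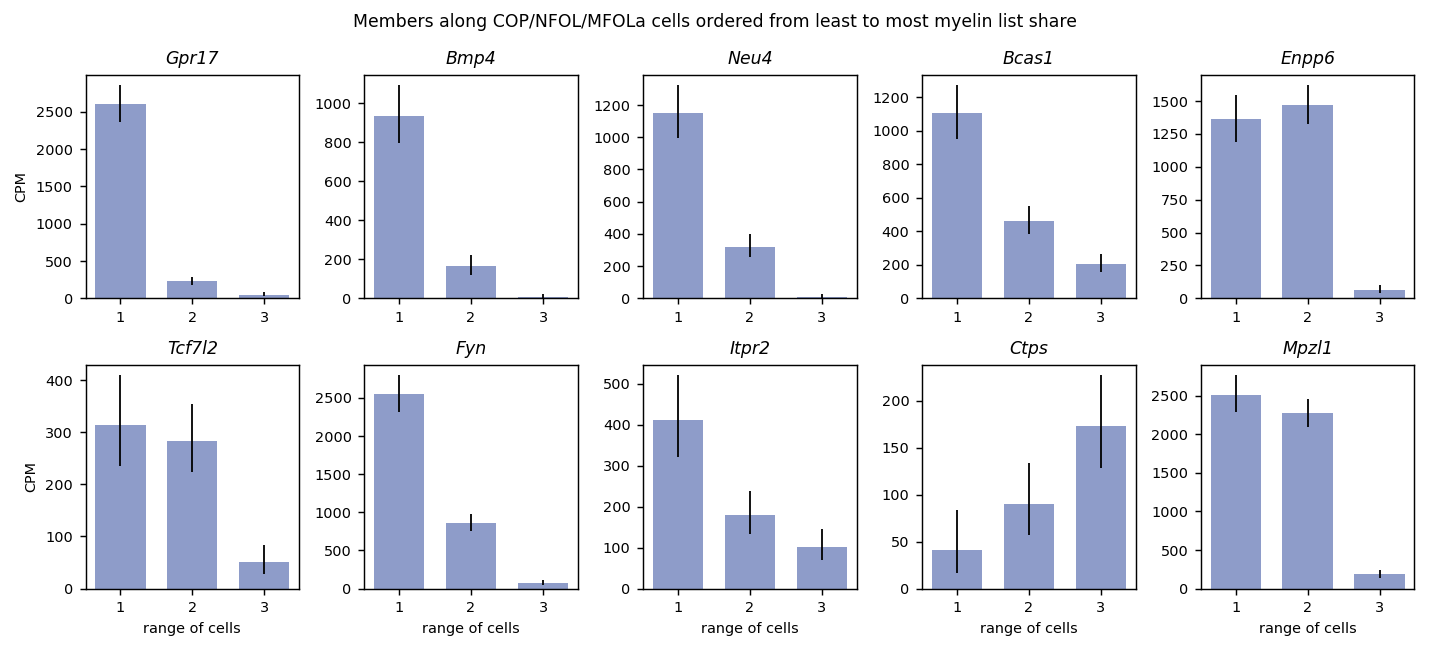
CPM of each gene (vertical axis, from 0) over the 3 ranges of COP/NFOL/MFOLa cells, 37 cells each from 3 libraries, with 95% Poisson intervals. Gpr17, Bmp4, Neu4 and Fyn are lower after the first range, Enpp6 and Mpzl1 are at 1468 and 2271 CPM in the second, to which 7 ectopic vOLCs gave the highest levels, and Ctps is highest in the last.

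Gpr17, Bmp4, Neu4 and Fyn belonged to the first range. Gpr17 went from 2604 CPM in the first to 228 and 47.4 CPM. Bmp4 went from 936 to 164 and 6.77 CPM, the last being 2 UMIs in all. Neu4 went from 1151 to 321 and 10.2 CPM, and Fyn from 2546 to 859 and 77.9 CPM. The log2 ratio of the last to the first range was -5.78 (-6.66 to -5.02) for Gpr17 and -5.03 (-5.70 to -4.43) for Fyn. In that range Gpr17 was at 2633, 2974 and 1780 CPM, above its OPC level in each library.

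Over the pooled cells, Enpp6, Mpzl1 and Tcf7l2 were still high in the second range. Enpp6 was at 1360 CPM in the first range, 1468 CPM in the second and 64.3 CPM in the last. Mpzl1 was at 2517, 2271 and 186 CPM, and Tcf7l2 at 314, 284 and 50.8 CPM. The libraries differed in this. From the first to the second range, Enpp6 went from 1399 to 1101 CPM in control dOLCs and from 1835 to 466 CPM in control vOLCs, but from 297 to 3132 CPM in ectopic vOLCs. Mpzl1 went from 2323 to 1623, from 3419 to 1118 and from 2027 to 5085 CPM in the same order. Tcf7l2 also was lower in the second range in both controls and higher in ectopic vOLCs, where the ranges held 5 and 7 cells. Bcas1 went from 1104 to 463 and 207 CPM. Itpr2 went from 413 to 179 and 102 CPM over the pooled cells. In ectopic vOLCs it was at 297 and 348 CPM in the first and second range, on 6 and 18 UMIs. In control dOLCs it was at 449, 146 and 163 CPM over the ranges.

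Ctps was higher at the other end of the order. It was at 40.7, 89.7 and 173 CPM in the 3 ranges, a log2 ratio of 2.09 (0.94 to 3.47) between the last and the first, on 7 UMIs in the first range. In control vOLCs it was at 83.4, 93.2 and 74.2 CPM, on 3, 1 and 3 UMIs, with no such order. Over the pooled cells 8 of the 10 genes were highest in the first range, Enpp6 in the second and Ctps in the last. Within each control library, however, Enpp6 was highest in the first range. Within ectopic vOLCs Mpzl1, Tcf7l2 and Itpr2 were highest in the second range, as was Enpp6. With ties in file order 9 genes were highest in the first range, Enpp6 among them. Ordering by the share of myelin list UMIs alone gave 6 genes. Over pooled cells Ctps was highest in the last range in every order tried. Libraries were not spread evenly, since the control dOLC library gave 26, 28 and 22 cells to the ranges, the control vOLC library 6, 2 and 5, and the ectopic vOLC library 5, 7 and 10.

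The genes occurred together in single cells. At 1000 UMIs per cell, 3 or more of the 10 genes were found in 51.3% (39.6% to 63.0%), 53.8% (25.1% to 80.8%) and 45.5% (24.4% to 67.8%) of COP/NFOL/MFOLa cells in the 3 libraries. The shares were 21.8%, 28.9% and 17.3% in OPCs, 1.64%, 1.08% and 1.36% in MOL2, and 0.74%, 0.18% and 0.22% in MOL5/6. None of the 157 MFOLb cells had 3, which by the rule of 3 counts allows a share of up to 1.91% over the pooled cells. By library, the upper Clopper-Pearson limits were 3.42%, 36.9% and 8.22%. Fyn was found in 49 and Mpzl1 in 54 of the 111 COP/NFOL/MFOLa cells, and both were found in 43, against 23.8 if they were independent. Gpr17 and Bmp4 were found together in 22 cells, against 10.3. Such pairs are described only, since a mixed cluster gives them whenever genes share a stage.

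**Figure D3:**
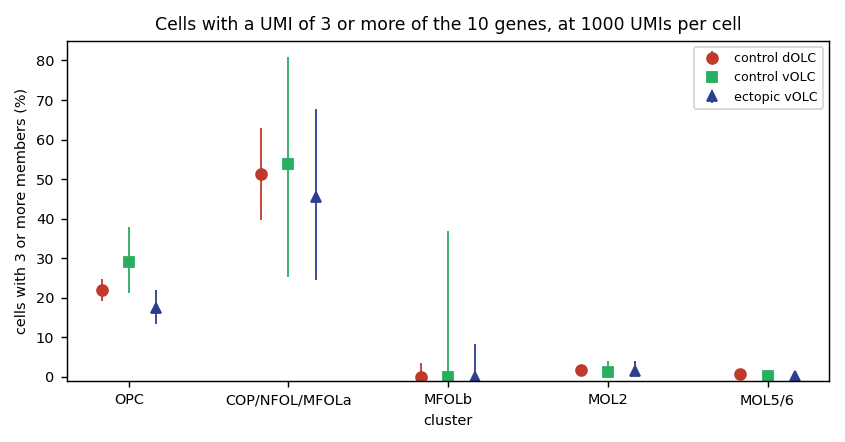
Percent of cells with a UMI of 3 or more of the 10 genes (vertical axis) by cluster and library, after thinning to 1000 UMIs per cell, with 95% Clopper-Pearson intervals. COP/NFOL/MFOLa cells lie between 45.5% and 53.8%, OPCs between 17.3% and 28.9%, and MFOLb, MOL2 and MOL5/6 cells below 2%.

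Genes with the most similar profile over the 11 clusters were sought among 8246 genes, by Pearson r of log2(CPM + 10). The 11 points share libraries and depth, so r is a description. The nearest to Gpr17 were 1810041L15Rik, Trio and 4430402I18Rik, with 1810041L15Rik at r = 0.996. Neu4 and Itpr2 shared Tnr, a matrix protein gene, at r = 0.993 and 0.993. Fyn and Tcf7l2 were near each other at r = 0.970, and Fyn and Mpzl1 both had Mycl and Slc27a3 among their nearest 3. Enpp6 and Bcas1 were least matched, with Cldn14 at r = 0.923 for Enpp6 and Epb41l2 at r = 0.933 for Bcas1.

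Other genes of the same pathways were read against the 4.41% of all genes at least 2-fold above OPCs, beside which counts of 0 or 1 among so few genes say nothing about a pathway. Of the 9 measured BMP pathway genes only Smad7, an inhibitor of the pathway, was at least 2-fold above OPCs in COP/NFOL/MFOLa in all 3 libraries, at 313, 321 and 194 CPM against 63.6, 35.5 and 26.6 CPM. Id2, a target of BMP signalling, was lower there, at 8.02, 22.9 and 20.1 CPM against 156, 228 and 204 CPM. None of the 10 measured Wnt pathway genes passed in that direction. Among paralogs, Enpp2 and Enpp4 were above OPCs with Enpp6, but both were as high in all MOL cells, where Enpp2 was at 2327, 2232 and 1892 CPM. Itpr1 stayed at or below 11.6 CPM in all 3 stages and Ctps2 at or below 20.3 CPM. Of 12 measured other COP and NFOL genes, 5 passed, namely Rras2, Cnksr3, Mycl, Kif19a and Myrf.

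The share of COP/NFOL/MFOLa cells had overlapping intervals in the 3 libraries. It was 1.31% (1.03% to 1.64%), 1.41% (0.75% to 2.39%) and 0.86% (0.54% to 1.30%) of kept cells, from 76, 13 and 22 cells. Shares follow the sort, and 1 library per condition gives no test.

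In OPCs Bmp4, Enpp6 and Ctps did not pass the minimum. None of the other 7 genes differed by 2-fold at full depth in any of the 3 comparisons, which share libraries. Beside this, 2.47% of all genes tested passed for ectopic vOLCs against control dOLCs, 7.13% for ectopic vOLCs against control vOLCs and 5.19% for control vOLCs against control dOLCs. Gpr17 gave log2 ratios of -0.23 (-0.40 to -0.07) and -0.58 (-0.82 to -0.33) for ectopic vOLCs against the dorsal and the ventral control. Itpr2 gave -0.33 (-0.55 to -0.12) and -0.58 (-0.90 to -0.25). Both genes were lowest in ectopic vOLCs. Tcf7l2 was highest in control vOLCs, at 0.89 (0.30 to 1.45) against control dOLCs, on 34 UMIs, and gave -0.76 (-1.39 to -0.11) for ectopic over control vOLCs and 0.13 (-0.34 to 0.58) for ectopic vOLCs over control dOLCs. Thinned to 1000 UMIs per cell, these last ratios became -1.86 and -1.05, past 2-fold in both and with the sign turned in the latter. This was a single draw that left a Tcf7l2 UMI in 67 of 1304 OPCs. Beside it, 18.0% and 5.88% of all genes were past 2-fold. With the mean over cells of full-depth CPM both ratios stayed within their intervals. At full depth, for ectopic over control vOLCs, 4 of the 7 genes had an interval below 0, namely Gpr17, Neu4, Itpr2 and Tcf7l2, beside 10.6% of all genes tested. Myelin genes took 1.20% of OPC UMIs in control dOLCs, against 0.53% in both other libraries, and their part was not tested.

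**Figure D4:**
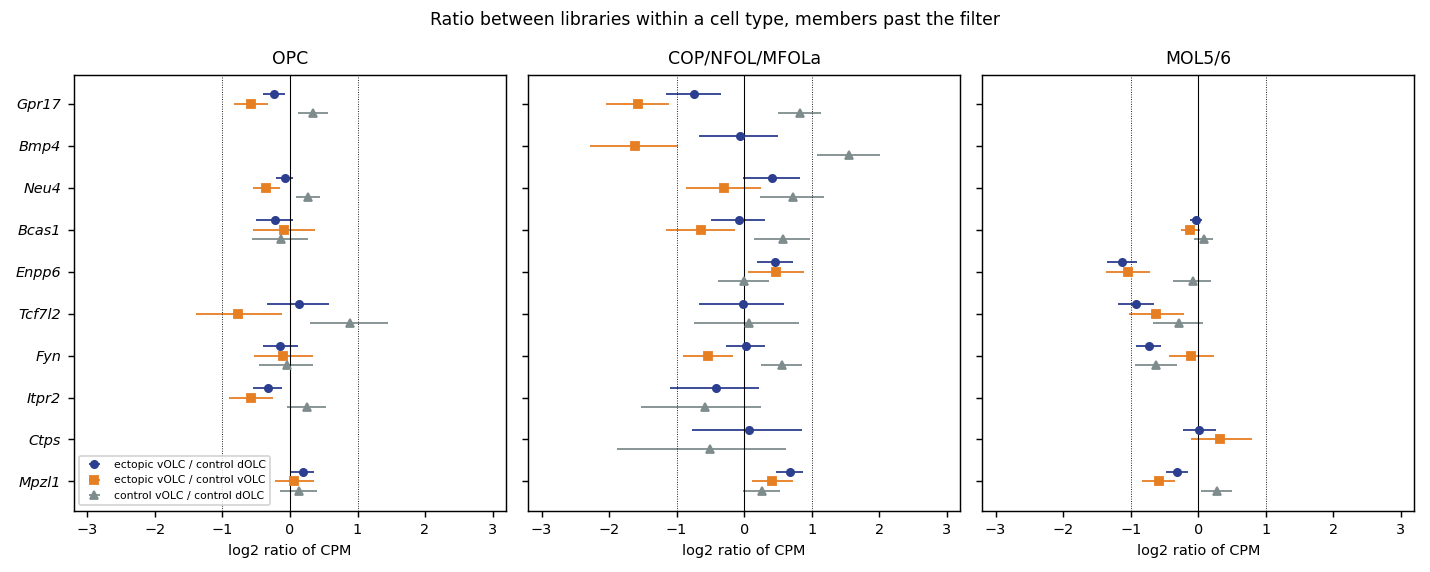
Log2 ratio of CPM between libraries (horizontal axis) for each gene past the minimum in OPC, COP/NFOL/MFOLa and MOL5/6 cells, with 95% exact intervals and dotted lines at 2-fold. Points lie within 2-fold in OPCs, Gpr17 and Bmp4 lie past it in COP/NFOL/MFOLa for ectopic over control vOLCs and Bmp4 also between the controls, and Enpp6 lies past it in MOL5/6 for ectopic vOLCs over either control.

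In COP/NFOL/MFOLa, ectopic vOLCs and control dOLCs lay within 2-fold for all 10 genes at full depth, beside 3.65% of 2029 genes past it. Mpzl1 was higher in ectopic vOLCs, at a log2 ratio of 0.68 (0.48 to 0.87), and Gpr17 was lower, at -0.74 (-1.15 to -0.35). Against control vOLCs, Gpr17 gave -1.57 (-2.05 to -1.10) and Bmp4 -1.62 (-2.29 to -0.98), the 2 of 7 genes past 2-fold, beside 3.73% of 643 genes. Between the controls Bmp4 was higher in control vOLCs by 1.55 (1.08 to 2.02), the 1 of 10 genes past 2-fold, beside 7.05% of 1858 genes. Thinned to 1000 UMIs per cell, Gpr17 and Bmp4 gave -0.76 and -0.91 against control vOLCs, both short of 2-fold. Enpp6 at 1.05 and Fyn at -1.02 then passed it, beside 30.6% of the same 643 genes after thinning. Nothing is read from these calls. Against control dOLCs, thinned Mpzl1 gave 0.39 and Gpr17 -0.14. Ctps, with few UMIs, went from 0.08 to -1.21 for ectopic vOLCs over control dOLCs. Between the controls it went from -0.51 to 1.55, so that both directions turned. After thinning, 31.3% of 2029 and 35.4% of 1858 genes lay past 2-fold in these comparisons.

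Few cells held these UMIs. A single control vOLC cell held 45 of the 109 Gpr17 UMIs and 1 cell held 18 of the 59 Bmp4 UMIs. In ectopic vOLCs, 3 of the 22 cells held at least 50% of the Mpzl1 UMIs. In alternatives chosen after seeing the data, and without the cell with most UMIs in each library, Gpr17 gave -1.11 (-1.67 to -0.56) against control vOLCs and Mpzl1 0.53 (0.31 to 0.74) against control dOLCs, where Enpp6 gave 0.25, with an interval that includes 0. Bmp4 then gave -1.65 (-2.44 to -0.89) against control vOLCs. Within the first range alone, Gpr17 gave -0.74 (-1.33 to -0.18) and Bmp4 -0.88 (-1.73 to -0.10) against control vOLCs, both short of 2-fold. Mpzl1 gave -0.20 (-0.71 to 0.28) against control dOLCs there. Within that range Enpp6 gave -2.24 (-3.70 to -1.08) against control dOLCs, on 6 UMIs in ectopic vOLCs, against 0.46 (0.19 to 0.72) over the whole cluster. In the second range Mpzl1 and Enpp6 were at 5085 and 3132 CPM in 7 ectopic vOLCs, against 1623 and 1101 CPM in 28 control dOLCs.

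MOL5/6 joins 4 subclusters, a to d, that the libraries filled differently. Control dOLCs had 333, 1947, 928 and 569 cells in them, control vOLCs 237, 236, 53 and 35, and ectopic vOLCs 900, 42, 63 and 837. In MOL5/6 as a whole, 4 of the 6 genes past the minimum had an interval below 0 for ectopic vOLCs over control dOLCs, namely Enpp6, Tcf7l2, Fyn and Mpzl1, beside 36.1% of all genes tested. Gpr17, Bmp4, Neu4 and Itpr2 did not pass it. Against control vOLCs this held for 3 genes, beside 27.8% of all genes, and Fyn gave -0.11 (-0.43 to 0.23). Enpp6 gave a log2 ratio of -1.13 (-1.36 to -0.91) against the dorsal and -1.05 (-1.37 to -0.72) against the ventral control, the 1 of 6 genes past 2-fold in each, beside 2.15% and 2.93% of genes. Within MOL5/6a Enpp6 gave -1.15 (-1.59 to -0.71) against the dorsal and -0.64 (-1.13 to -0.14) against the ventral control. Within MOL5/6d it gave -1.12 (-1.52 to -0.73) and -1.60 (-2.44 to -0.64), the latter on 13 UMIs of control vOLCs. In MOL5/6b and MOL5/6c, with few ectopic cells, the intervals against control dOLCs included 0. Over all MOL5/6 cells Tcf7l2 gave -0.92 (-1.18 to -0.66) and Fyn -0.73 (-0.92 to -0.55) against control dOLCs. Bcas1 was level at -0.04 and Ctps at 0.01. The 7 OPC marker genes summed to 109, 69.9 and 56.0 CPM in MOL5/6, and their part in these ratios was not tested. Between the controls none of 5 genes passed, beside 1.17% of genes. Scaling by TMM factors moved the median of all genes from -0.03 to 0.12 against control dOLCs, and Enpp6 was then at -0.98, short of 2-fold. Thinned to 1000 UMIs per cell, it gave -0.23 against control vOLCs. Within MOL2 cells Enpp6 gave -0.10 (-0.26 to 0.07) against the dorsal control and -0.34 (-0.54 to -0.14) against the ventral one. Within the subcluster MOL2a alone it gave 0.08 (-0.14 to 0.30) and -0.07 (-0.30 to 0.17).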

How the data were processed

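Single cells of 3 libraries were analysed, 1 per condition. The 4 P0 nucleus samples were not analysed here. The authors deposited raw UMI counts per gene and barcode without normalization, with an annotation of libraries and clusters, and the percent of mitochondrial counts deposited there was computed by the authors. The submitters' processing notes name Cell Ranger 2.1.1, Seurat 3 and Seurat 4.0 and the build mm10, and the study gives that Cell Ranger release in one place and a later one in its methods for these cells. Whether counting used strand is not given in the sources used here, and in the GENCODE annotation Tcf7l2, Mpzl1 and Itpr2 overlap genes on the same strand, and Gpr17, Bmp4, Bcas1, Enpp6, Fyn and Itpr2 overlap genes on the other strand, so that reads of these genes may be shared with their neighbours. Neu4 and Ctps overlap none.

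The filter of over 200 and under 3000 genes and at most 15% mitochondrial counts left 9291 of 10081 barcodes, the cells of the annotation. Of its columns, 5 were not used. Scrublet called 16 kept cells (0.172%) and was judged not to have worked, so no doublets were removed. UMIs were summed per cluster and library. Ratios carry conditional exact binomial, levels exact Poisson and shares Clopper-Pearson intervals at 95%. Genes between libraries needed 50 UMIs in the compared libraries and a UMI in 10% of cells of one. Thinning drew 1000 UMIs from each cell in a single random draw and left out none. Depth ranged from 1257 to 12180 UMIs per cell.

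All 10 genes are named. The others named are genes of the lists, and the 3 genes most like each by profile. The members and lists were chosen with earlier results of these data known. The ordering of ties, and the alternatives named as added, were chosen after seeing the data. Steps were tested on simulated data. Tools were scanpy 1.11.5, scipy 1.17.1, numpy 2.4.6, pandas 2.3.3 and matplotlib 3.10.9 under Python 3.11.15, and edgeR 4.0.16 and DESeq2 1.42.0 under R 4.3.3 for scaling factors only. Alternatives were TMM and median of ratios factors, no filter, means over cells, thinning, a limit of 10% mitochondrial counts, mitochondrial UMIs left out of the total, the 6% of barcodes with the highest Scrublet score left out, each library left out of the stage profile, other orders and 2 ranges of the COP/NFOL/MFOLa cells, and unthinned shares.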

Additional observations from a re-analysis of the deposited data

Results flagged for a closer look

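Enpp6 and Mpzl1 lay on opposite sides of 0 in COP/NFOL/MFOLa and in MOL5/6 when ectopic vOLCs were compared with either control. Against control dOLCs, Enpp6 gave log2 ratios of 0.46 (0.19 to 0.72) and -1.13 (-1.36 to -0.91), a difference of 1.59, and Mpzl1 gave 0.68 (0.48 to 0.87) and -0.31 (-0.48 to -0.15), a difference of 0.99. Against control vOLCs, the difference was 1.51 for Enpp6 and 1.00 for Mpzl1. Between the controls Fyn did so too, being higher in control vOLCs by 0.56 (0.25 to 0.86) in COP/NFOL/MFOLa and lower by a log2 ratio of -0.62 (-0.94 to -0.32) in MOL5/6, a difference of 1.18. Within the first range of COP/NFOL/MFOLa cells Fyn gave 0.25 (-0.09 to 0.58), an interval that includes 0. In alternatives added later, Enpp6 in COP/NFOL/MFOLa gave 0.25 against control dOLCs without the cell with most UMIs, with an interval that includes 0, and within the first range of those cells both genes were below 0 against either control, at -2.24 and -2.63 for Enpp6 and -0.20 and -0.75 for Mpzl1. Thinned to 1000 UMIs per cell, Enpp6 in MOL5/6 gave -0.23 against control vOLCs. These differences were not tested, since each condition is 1 library.

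Barcodes outside the kept cells carried the genes too. In the removed barcodes with 3000 or more genes, 280, 66 and 266 in control dOLCs, control vOLCs and ectopic vOLCs, the 10 genes summed to 1430, 855 and 793 CPM, against 759, 775 and 560 CPM in kept cells. At 1000 UMIs per cell, 12, 1 and 3 of these barcodes had a UMI of 5 or more of the genes, against 32, 8 and 10 kept cells. Their median depth was 11308.5, 11306 and 11580 UMIs. The part of doublets was not tested.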

How the results depend on the processing

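No paired analysis was possible because the labels give a single library to every condition. With 8 genes highest in COP/NFOL/MFOLa, leaving out each library in turn gave 8 to 8, and 10 genes were highest there after thinning to 1000 UMIs. The number of members past 2-fold moved where it was small. Without a filter it was 1 for ectopic vOLCs against either control in OPCs; 4, 5 and 4 in MFOLb; 1 in MOL2 for ectopic vOLCs and for control vOLCs against control dOLCs; 4 in MOL5/6 against control dOLCs; and 3 and 2 in all MOL. After thinning it was 1 in OPCs for both, 1 and 2 in COP/NFOL/MFOLa for ectopic and control vOLCs against control dOLCs, 1 in MFOLb, 2 in MOL2, 2 and 1 in MOL5/6, and 1 and 2 in all MOL. Without a filter, 23.5% and 30.3% of all genes were past 2-fold for ectopic vOLCs in OPCs, and 36.4%, 61.6% and 60.4% in MFOLb. The share was 28.3% and 27.7% in MOL2, 24.2% in MOL5/6, and 23.1% and 26.9% in all MOL. After thinning, it was 5.88% and 18.0% in OPCs, 31.3% and 35.4% in COP/NFOL/MFOLa, and 45.5% in MFOLb. In MOL2 it was then 20.2%, in MOL5/6 4.22% and 2.23%, and in all MOL 3.65% and 5.91%. With TMM or DESeq2 factors the number of members was 0 in MOL5/6 for ectopic vOLCs against either control. Within the first range of COP/NFOL/MFOLa cells, an alternative added later, it was 2, 1 and 2 for the 3 comparisons. Without the cell with most UMIs it was 2 between the controls. The share of all genes was not computed for these added alternatives, and nothing is read from the counts of members. Of the ratios of single genes, thinning moved 35 of 102 out of their interval, DESeq2 factors 6 and TMM factors 4, and the other planned settings none. Leaving out the filter cannot change a ratio. No COP/NFOL/MFOLa or MFOLb cell was among the 6% with the highest Scrublet score, so that setting could not change ratios there. No ratio past 2-fold changed sign, while some smaller ones did. The causes were not tested.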
